A study of Mus musculus with 4 samples.

Results

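The proteasome is the large protease that degrades ubiquitin-tagged proteins. Its core particle is built of alpha rings, which gate the entry, and beta rings, which carry the proteolytic sites, and a regulatory particle, made of a base of ATPases and a lid, recognises, unfolds and feeds in the substrate. Its subunits are made from separate genes that are known to be transcribed together, partly through the transcription factor Nfe2l1, and in interferon-treated and immune cells the catalytic beta subunits are replaced by inducible ones that favor antigen presentation.

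The members were all genes that the array itself names with Psm, a letter from a to g and a number. They were 43 of the 19750 named genes and were represented by 67 probes. These genes code for core, inducible, base, lid, assembly and activator proteins. The assembly chaperones Psmg1, Psmg2 and Psmg3 and the thymus subunit Psmb11 stood on the array under older names and are given only beside the members. A subunit with another kind of name, such as the lid subunit Sem1, was likewise not a member.

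Total RNA of 3T3-L1 cells, a mouse preadipocyte line that turns into adipocytes after hormonal induction, was measured on day 2 on Agilent Whole Mouse Genome arrays with a single dye. All cultures had received insulin, dexamethasone and IBMX from day 0. All media held 0.1% DMSO, the solvent. Beside the induction agents the control held nothing further, and the others also held 100 μg/mL bilberry extract, 100 nM delphinidin or 100 nM cyanidin. Each of these 4 conditions was measured on 1 array, which leaves every difference without replicates, without an SD over replicates and without a test. Precision is limited by there being so few arrays. The cultures were of a single cell line, and a bulk RNA sample cannot tell fewer cells of a type from less RNA per cell.

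Levels are the log2 of the background-subtracted spot intensity less the log2 of the 75th percentile of the same array, so a level of 0 is the brightness of the 75th percentile spot. A log2 ratio is the difference of such levels between arrays, and 1 probe, the brightest, stands for a gene. The 75th percentile signal was 861 for DMSO, 576 for bilberry, 1009 for delphinidin and 1016 for cyanidin, and relative to DMSO the spike-in controls of the bilberry array were 0.96 higher in log2. Scaling to these spike-ins would lower the median of all genes with bilberry from 0.17 to -1.37, and would raise it from -0.0082 to 0.25 with delphinidin and from 0.020 to 0.25 with cyanidin. Values are therefore also given relative to the median of all 11969 genes that the scanner software called well above background on the 4 arrays, here called detected genes. Of the listed adipocyte markers 7 of 8 were detected, with leptin (Lep) not well above background on any array, as were 4 of 4 preadipocyte markers. Of the macrophage markers 2 of 4 were detected, whereas Ptprc and Adgre1, which define leukocytes and macrophages, did not clear the background call on any of them. None of 3 endothelial and none of 3 epithelial markers was detected. The summed linear level of the adipocyte list was 390 (DMSO), 269 (bilberry), 426 (delphinidin) and 461 (cyanidin), and that of the preadipocyte list 124, 92.4, 90.2 and 85.3 in that order. The bilberry sums turned mainly on Fabp4 and Thy1, at log2 ratios of -0.95 and -1.20, while Pparg, Cebpa, Plin1 and Lpl were at 0.019 to 0.50 and Dlk1 at 0.31. Adipoq and Cd36 were also lower with bilberry, at -1.07 and -0.36, as were Pdgfra and Pdgfrb, at -0.21 and -0.12. Log2 ratios below 0 with bilberry were thus found for 3 of 7 detected adipocyte and 3 of 4 preadipocyte markers. The delphinidin and cyanidin sums turned mainly on Lpl, at 0.73 and 0.78, and Thy1, at -0.94 and -0.87. Fabp4 was at -0.19 and -0.036, and Adipoq at -0.19 and 0.23. Below 0 were 2 of 7 adipocyte and 3 of 4 preadipocyte markers with delphinidin, and 1 of 7 and 4 of 4 with cyanidin. The part of these markers in the differences below was not tested.

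Of the 40 members with a value on every array 39 were detected, against 62.3% of all genes with such values. On every array 37 of these 39 lay above the 75th percentile, against 55.4% of all detected genes. The exceptions were Psmb8 and Psmb9, the inducible catalytic subunits, which lay below it on all 4 arrays. The testis subunit Psma8 was not well above background anywhere. Psma5, Psmb4 and Psmd13 had a spot that the scanner software marked as uneven on 1 array each and were left out of all counts of expression values. Where they were measured, Psma5 stood at log2 levels of 6.23 with DMSO, 6.62 with bilberry and 6.36 with delphinidin, and Psmb4 at 6.09 with DMSO, 6.86 with bilberry and 6.27 with cyanidin. Psmd13 was measured at 1.52 (bilberry), 0.85 (delphinidin) and 1.01 (cyanidin). No member spot was saturated.

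With delphinidin and cyanidin most proteasome genes stood slightly higher than with DMSO, by about the same amount. Both comparisons use the same DMSO array, so here and for the subcomplexes below they do not support each other independently. The member median was at a log2 ratio of 0.17 with delphinidin and 0.22 with cyanidin, which is 0.18 and 0.20 above the median of all detected genes. Above that median were 33 of 39 members with delphinidin and 30 of 39 with cyanidin, where the definition gives 50% of all genes. The direction of both medians relative to all genes was the same under 12 of 12 other ways of processing. Among these, spike-in scaling, scaling to the median of detected probes and a deposited table of the same intensities could not change it. A single factor per array cancels in a median relative to all genes. The shift is small. Past 1.5-fold with delphinidin was 1 of 39 members, Psmb8, against 9.73% of all detected genes. It was lower, against 5.31% of all genes, and none was higher, against 4.41%. With cyanidin 1 of 39 passed, Psmd1, against 7.76%. It was higher, against 3.09% of all genes, and none was lower, against 4.67%. None passed 2-fold in either comparison, against 2.69% and 1.76% of all genes. The SD over members was 0.22 with delphinidin and 0.21 with cyanidin, and over all detected genes it was 0.39 and 0.36. Over genes with a mean level above the 75th percentile, where most members lay, it was 0.31 and 0.27. Bright genes as a whole stood a little higher too. Against the median of the 7070 genes with a mean level above the 75th percentile, 29 and 28 of the 39 members lay above.

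With bilberry the members lay on both sides of the median of all genes. Their median log2 ratio was 0.25, only 0.08 above the median of all detected genes, and 23 of 39 lay above that median, close to the 50% of all genes. That median turned to the other side of all genes, at -0.27 with a normexp background correction fitted on all spots and at -0.070 with no filter on detection. With normexp fitted without spots of uneven background it was 0.060. The member ratios ran from -0.34 to 0.94, with an SD of 0.34 over members and 0.66 over all detected genes. Over genes with a mean level above the 75th percentile the SD was 0.57. Past 1.5-fold were 6 members, all higher (Psmb3, Psmb5, Psmb7, Psmb10, Psmc4 and Psmf1), which is 15.4% of the members against 18.5% of all detected genes that were higher by this factor and 32% past it in either direction. No member was lower by that factor, against 13.5% of all genes, and none passed 2-fold, against 10.4%. Of the 7070 genes with a mean level above the 75th percentile 632 were lower by over 1.5-fold. Under spike-in scaling these 6 genes lie at -0.60 to -0.88 and all 39 members lie below DMSO, so for bilberry the ratios hold relative to other genes on the array only. The lower brightness of the bilberry array moved with this comparison, and its part in it was not tested.

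**Figure D1:**
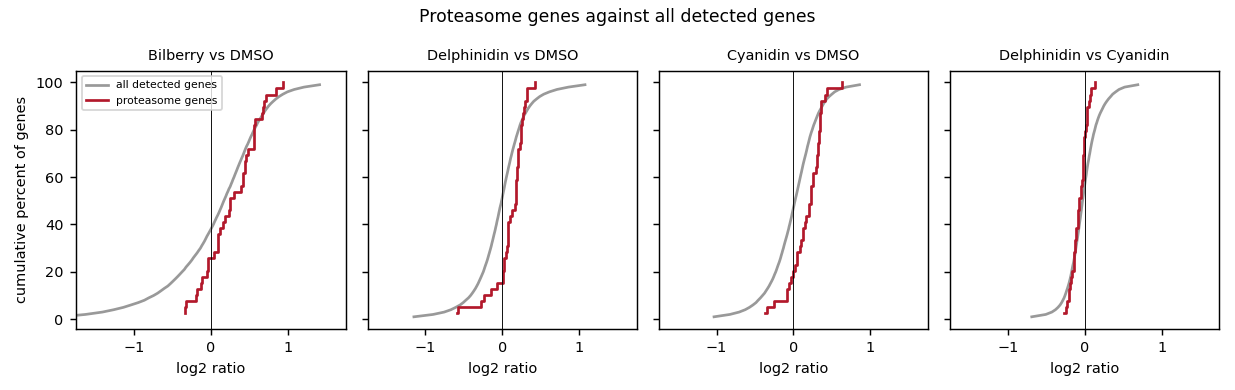
Cumulative percent of genes (y axis) against the log2 ratio (x axis) for the 39 detected proteasome genes (red steps) and all 11969 detected genes (grey line, 1st to 99th percentile, leaving the bilberry panel at its left edge), after 75th percentile scaling, with 1 array per condition. The red steps lie to the right of the grey line over most of their range with delphinidin and cyanidin (medians 0.18 and 0.20 above all genes), cross it at higher ratios with bilberry, and are steeper than it in all 4 panels.

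The 4 arrays were also ordered for each member. Of the 39 members 24 (61.5%) were lowest on the DMSO array, against 33.2% of all detected genes, and 25 (64.1%) were highest on the bilberry array, against 51.8%. Highest with DMSO were 2 (5.13%), against 23.4%. Under spike-in scaling all 39 lie lower with bilberry than with DMSO, so none would be highest with bilberry or lowest with DMSO. These counts use the DMSO array in every comparison, so the 3 treatments do not give independent support to each other.

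The core alpha ring, which forms the gate, was detected through 6 genes. All 6 lay above the median of all genes with delphinidin, and 5 did with cyanidin, the exception being Psma6. Psma1 was at log2 levels of 5.26 (DMSO), 5.23 (bilberry), 5.59 (delphinidin) and 5.62 (cyanidin). It was thus higher with both anthocyanidins than with DMSO, by 0.33 and 0.36 in log2, and at -0.20 relative to all genes with bilberry. Psma4 was at 3.04 (DMSO), 2.70 (bilberry), 3.21 (delphinidin) and 3.40 (cyanidin), lowest with bilberry and highest with cyanidin. Its other probe gave log2 ratios that differed by at most 0.034 in each comparison with DMSO. With bilberry the ring was spread from -0.34 in log2 ratio for Psma4 to 0.56 for Psma2, and its median of 0.0020 lay at -0.17 relative to that of all genes.

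The constitutive beta ring behaved otherwise with bilberry. The median of its 6 detected genes was 0.61 with bilberry, 0.44 above all genes, and 0.20 and 0.22 with delphinidin and cyanidin. That the alpha ring lay below and the constitutive beta ring above the median of all genes with bilberry held under 11 of 11 alternatives, though in the lowest the beta ring lay above by 0.0017 only. These alternatives include spike-in scaling, median scaling and the deposited table, which could not change the side. The ranges overlapped, since Psma2 at 0.56 and Psma7 at 0.45 stood above Psmb1 at 0.15 and Psmb6 at 0.41. Psmb3, a structural subunit of the ring, was at log2 levels of 5.97 (DMSO), 6.90 (bilberry), 6.16 (delphinidin) and 6.22 (cyanidin). Its log2 ratio of 0.94 with bilberry was the highest of all detected members, and its other probe gave 0.79. Psmb1, another structural subunit, lay below the median of all genes with both anthocyanidins, at log2 ratios of -0.073 and -0.083, and Psmb6 did so with cyanidin, at -0.053.

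**Figure D2:**
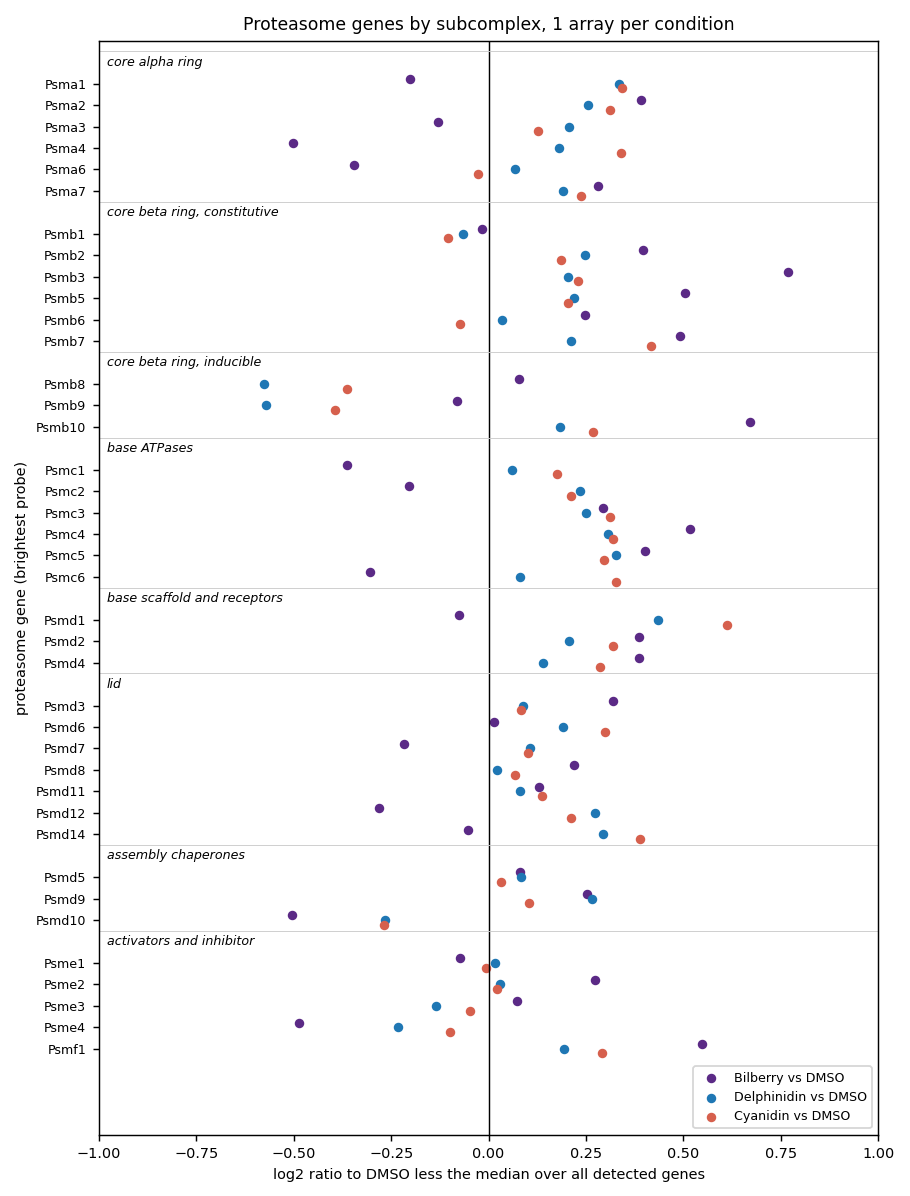
Log2 ratio to DMSO less the median over all detected genes (x axis) for each of the 39 detected proteasome genes (y axis, grouped by subcomplex), with 1 point for each treatment and 1 array per condition. Delphinidin and cyanidin points cluster to the right of 0 in the rings, base and lid, Psmb8 and Psmb9 lie to the left, and bilberry points run from -0.51 to 0.77; under spike-in scaling every bilberry ratio to DMSO, before subtraction of the median, would be negative.

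The proteolytic sites are carried by Psmb5, Psmb6 and Psmb7, and their inducible replacements are Psmb8, Psmb9 and Psmb10 in that order. Psmb5, the chymotrypsin-like subunit, was at log2 levels of 4.10 (DMSO), 4.77 (bilberry), 4.31 (delphinidin) and 4.32 (cyanidin). Psmb6, the caspase-like subunit, was at 5.50 (DMSO), 5.92 (bilberry), 5.53 (delphinidin) and 5.45 (cyanidin). Psmb7, the trypsin-like subunit, was at 3.35 (DMSO), 4.01 (bilberry), 3.55 (delphinidin) and 3.78 (cyanidin). All 3 were highest with bilberry, and Psmb6 differed by at most 0.053 in log2 between DMSO and either anthocyanidin.

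Psmb8 and Psmb9 went the other way with the anthocyanidins. Psmb8 (probe at mm8 chr17:33811095-33811419) was at log2 levels of -1.48 (DMSO), -1.23 (bilberry), -2.07 (delphinidin) and -1.82 (cyanidin). Psmb9 (chr17:33792517-33792576) was at -1.12 (DMSO), -1.04 (bilberry), -1.70 (delphinidin) and -1.50 (cyanidin). Both were lowest with delphinidin and next lowest with cyanidin, at log2 ratios to DMSO of -0.59 and -0.58 with delphinidin and -0.34 and -0.37 with cyanidin. A second Psmb8 probe gave 0.15 with bilberry and -0.52 with cyanidin, and its delphinidin spot was marked. Only Psmb8 with delphinidin passed 1.5-fold, at a fold of 0.666, and it did not do so under normexp correction, quantile normalization, spike-in scaling or scaling to the median of detected probes. Of all 11969 detected genes 636 were lower by this factor with delphinidin. Only 152 of these were among the 7070 genes with a mean level above the 75th percentile. Psmb8 and Psmb9 lay below that level and were not compared with dim genes alone. Psmb10 (chr8:108824906-108824965) did not follow Psmb8 and Psmb9. It was at 3.12 (DMSO), 3.96 (bilberry), 3.30 (delphinidin) and 3.41 (cyanidin), higher with every treatment.

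Set pair by pair, the log2 ratio of Psmb8 less that of Psmb5 was -0.80 with delphinidin, -0.57 with cyanidin and -0.42 with bilberry. For Psmb9 less Psmb6 it was -0.61, -0.32 and -0.33. For Psmb10 less Psmb7 it was -0.029 and -0.15 with the anthocyanidins and 0.18 with bilberry. These differences do not depend on the scaling of an array by a single factor. For scale, the SD of a log2 ratio over replicate spots of a probe was 0.033 to 0.035 in the comparisons with DMSO, which covers the spots of an array only, and probes for the same gene spanned a median of 0.34 (bilberry), 0.15 (delphinidin) and 0.21 (cyanidin) over 5018 genes.

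**Figure D3:**
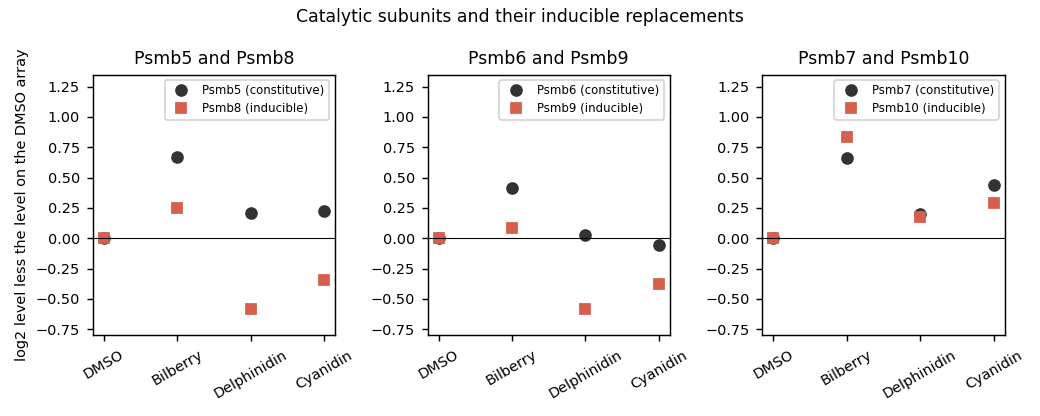
Log2 level less the level on the DMSO array (y axis) on each of the 4 arrays (x axis) for the constitutive catalytic subunits (black circles) and their inducible replacements (red squares), 1 array per condition. Psmb8 and Psmb9 lie below 0 with delphinidin (-0.59 and -0.58) and cyanidin (-0.34 and -0.37), while Psmb10 lies above 0 with all 3 treatments; under spike-in scaling the bilberry values of all 6 genes would lie below 0.

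Psmb8 and Psmb9 sit in the MHC region beside the genes of the peptide transporter, and a list of 11 genes of MHC class I presentation was set beside them. Of these, 9 were detected and 4 of the 9 lay above the median of all genes with each anthocyanidin. The transporter subunit Tap2 was at a log2 ratio of -0.21 (bilberry), -0.53 (delphinidin) and -0.11 (cyanidin), and tapasin (Tapbp), which loads peptides on class I molecules, was at -0.12, -0.55 and -0.37. Calreticulin (Calr), a chaperone of the endoplasmic reticulum, stood at the other end with 0.71, 0.56 and 0.45. The light chain B2m lay at 0.20, -0.015 and 0.12. Tap1 had marked spots with DMSO and with delphinidin. With delphinidin the 4 genes above the median of all genes were Calr, Pdia3 at 0.37, Canx at 0.36 and Erap1 at 0.078. Tapbp and Tap2 were the lowest of the list there, on the same side as Psmb8 and Psmb9. The list thus did not move in a single direction. Its median relative to all genes, -0.0023 with delphinidin, describes neither end.

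The 6 ATPases of the base, which unfold the substrate, lay above the median of all genes in 6 of 6 cases with delphinidin and 6 of 6 with cyanidin, with median log2 ratios of 0.23 and 0.32. Psmc4 was at log2 levels of 4.15 (DMSO), 4.83 (bilberry), 4.45 (delphinidin) and 4.49 (cyanidin), and Psmc5 at 3.01, 3.58, 3.32 and 3.32 in the same order. By these probes both were lowest with DMSO and highest with bilberry. The other Psmc5 probe was also lowest with DMSO, but highest with delphinidin, with log2 ratios of 0.10, 0.20 and 0.11. With bilberry the ring was divided, with Psmc3, Psmc4 and Psmc5 at log2 ratios of 0.46 to 0.69 and Psmc1, Psmc2 and Psmc6 at -0.19 to -0.037. Its median with bilberry changed side of the all-gene median under 6 of 11 alternatives.

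The scaffold of the base and its ubiquitin receptor were represented by Psmd1, Psmd2 and Psmd4, all 3 above the median of all genes with both anthocyanidins. Psmd1, a scaffold subunit (probe at mm8 chr1:87957644-87957703), was at log2 levels of 1.97 (DMSO), 2.06 (bilberry), 2.40 (delphinidin) and 2.60 (cyanidin). It had the highest log2 ratio of all detected members with each anthocyanidin, 0.43 with delphinidin and 0.63 with cyanidin. It passed 1.5-fold with cyanidin at a fold of 1.55, but not after quantile normalization. Psmd2, the other scaffold subunit, was at 4.75, 5.30, 4.95 and 5.09 in the order DMSO, bilberry, delphinidin, cyanidin, and its other probe gave log2 ratios to DMSO of 0.60, 0.21 and 0.44.

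The lid, which removes ubiquitin before degradation, was detected through 7 genes. All 7 lay above the median of all genes with delphinidin and with cyanidin, at medians of 0.099 and 0.16. Psmd14, the deubiquitinase itself, was at log2 levels of 4.44 (DMSO), 4.56 (bilberry), 4.73 (delphinidin) and 4.85 (cyanidin), lowest with DMSO and highest with cyanidin. It was among the 3 highest members with cyanidin, at a log2 ratio of 0.41, and its other detected probe gave 0.30, with 0.34 for delphinidin and -0.17 for bilberry. The remaining 6 lid genes ran from 0.013 for Psmd8 to 0.26 for Psmd12 with delphinidin and from 0.089 for Psmd8 to 0.32 for Psmd6 with cyanidin. With bilberry 4 of 7 lay above the median of all genes.

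Among the assembly chaperones, which help to build the base and are not part of the finished particle, Psmd10 differed from the subunits. Psmd10, also called gankyrin (probe at mm8 chrX:136295572-136295631), was at log2 levels of 1.58 (DMSO), 1.24 (bilberry), 1.30 (delphinidin) and 1.33 (cyanidin). DMSO was thus its highest array, at log2 ratios of -0.34, -0.27 and -0.25 for the treatments, and it was the lowest of the detected members with bilberry, next to Psma4 at -0.34. Psmd5 was at log2 ratios of 0.25, 0.075 and 0.051, and Psmd9 at 0.42, 0.26 and 0.13. The other Psmd9 probe gave -0.035, 0.12 and -0.0030. The core chaperones Psmg1, Psmg2 and Psmg3, which the array lists under older names, were all above the median of all genes in each comparison with DMSO, with log2 ratios of 0.22 to 0.36 with bilberry, 0.16 to 0.23 with delphinidin and 0.19 to 0.39 with cyanidin.

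Among the activators, which open the core without ubiquitin, Psme1 and Psme2 stood near DMSO with the anthocyanidins and Psme4 stood lower with delphinidin. Psme1 and Psme2, which form the activator induced by interferon, were at log2 levels of 3.91 and 5.52 (DMSO), 4.01 and 5.96 (bilberry), 3.92 and 5.54 (delphinidin) and 3.93 and 5.56 (cyanidin). Neither differed from DMSO by more than 0.042 with an anthocyanidin. Psme3, the nuclear activator, was at 1.49 (DMSO), 1.73 (bilberry), 1.34 (delphinidin) and 1.46 (cyanidin). Psme4, a large nuclear activator, was at 5.31, 4.99, 5.07 and 5.23 in that order, highest with DMSO. With delphinidin its log2 ratio was -0.24, or -0.23 relative to all genes, and its 4 probes ran from -0.36 to -0.19. Spike-in scaling would put its brightest probe above DMSO with both anthocyanidins, and only slightly so with delphinidin. The inhibitor Psmf1 was at 0.55 (DMSO), 1.27 (bilberry), 0.74 (delphinidin) and 0.86 (cyanidin), lowest with DMSO and highest with bilberry. The median of these 5 genes relative to all genes was -0.0061 with cyanidin and changed side under 5 of 11 alternatives.

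Of the members 15 had several detected probes with a value on every array, which allows the ratios to be compared within a gene. The range over probes was 0.35 (bilberry), 0.12 (delphinidin) and 0.15 (cyanidin) as a median over these genes, and it exceeded 0.5 for 5, 1 and 3 of them. They were Psmc2, Psmd4, Psmd7, Psme4 and Psmf1 with bilberry, Psmc2 with delphinidin, and Psmc2, Psmd7 and Psme4 with cyanidin. In Psmc2 the bright probe gave log2 ratios of -0.037, 0.23 and 0.23, and a second probe with a level of -3.72 on the DMSO array gave -0.60, -0.88 and -1.18. In Psmd4 the second probe was at -1.04 with bilberry where the bright probe was at 0.55. In Psmd7 the probes ran from -0.25 to 0.35 with bilberry and from -0.44 to 0.12 with cyanidin, in Psme4 from -0.39 to 0.63 with bilberry and from -0.38 to 0.19 with cyanidin, and in Psmf1 from 0.48 to 1.57 with bilberry. The mean over all probes of each gene lowered the member median to 0.11 above all genes with delphinidin and 0.12 with cyanidin.

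**Figure D4:**
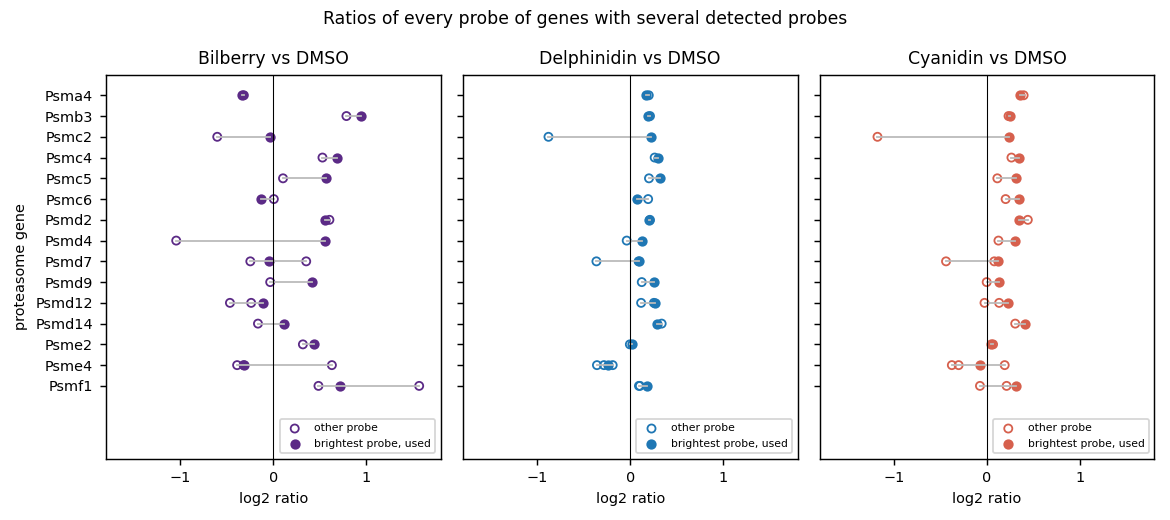
Log2 ratio to DMSO (x axis) of every detected probe of the 15 proteasome genes with several detected probes (y axis), with the brightest probe filled and the others open, 1 array per condition. Most genes span little with delphinidin, while Psmc2 runs from -0.88 to 0.23, and with bilberry Psmd4 runs from -1.04 to 0.55 and Psmf1 from 0.48 to 1.57; these are ratios after 75th percentile scaling, and spike-in scaling would shift all bilberry points to the left.

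Delphinidin and cyanidin, which differ by an additional hydroxyl group on the B ring of delphinidin, were compared directly at the same dose and day, as the only matched pair of compounds. Their arrays differed little over the proteasome. The log2 ratio of delphinidin to cyanidin had a median of -0.076, or -0.047 relative to all detected genes, and 16 of 39 members lay above the median of all genes, against 50%. The values ran from -0.28 for Psmc6 to 0.13 for Psmd9. No member passed 1.5-fold, against 2.9% of all detected genes, and none passed 2-fold, against 0.719%. Psmc6 was at log2 levels of 4.89 with delphinidin and 5.16 with cyanidin, and its other probe gave a ratio of -0.0076. The SD of the ratio was 0.097 over members, 0.26 over all detected genes and 0.17 over genes with a mean level above the 75th percentile. All 3 scaffold and receptor genes and all 3 inducible genes lay below the median of all genes of -0.029, at log2 ratios of -0.21 to -0.14 and of -0.24 to -0.11. With 1 array each no interval of the difference can be given, so a small difference does not show that the compounds act alike.

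**Figure D5:**
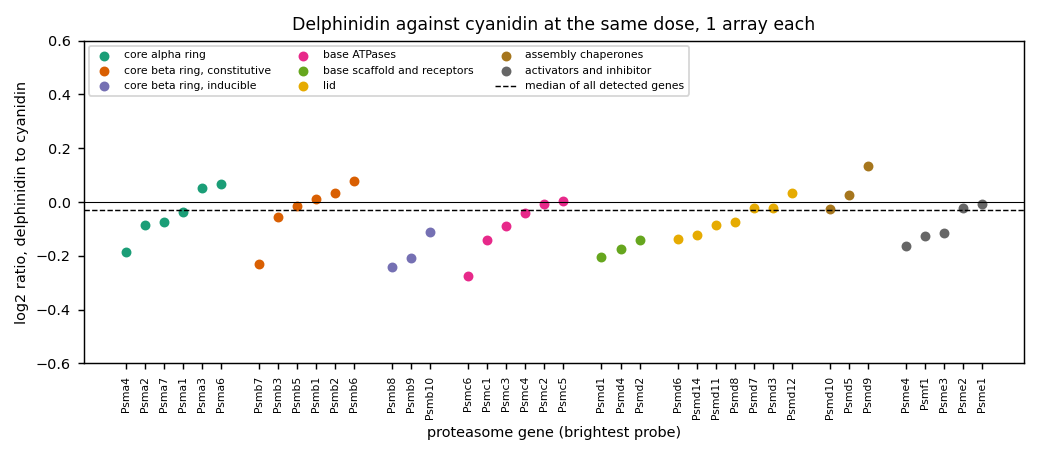
Log2 ratio of delphinidin to cyanidin (y axis) for the 39 detected proteasome genes (x axis, grouped and colored by subcomplex), with 1 array each; the dashed line is the median of all detected genes at -0.029. The points lie between -0.28 and 0.13, and the 3 scaffold and receptor genes and the 3 inducible genes all lie under the dashed line.

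Other large complexes were set beside the proteasome as counts and medians. The COP9 signalosome, whose subunits resemble those of the lid, had a median 0.12 above all genes with delphinidin and 0.031 with cyanidin over 9 genes. The translation factor eIF3, which shares the same fold, had 0.082 and 0.12 over 13 genes, and the cytosolic chaperonin CCT, which folds actin and tubulin, had 0.22 and 0.36 over 7 genes. The proteasome values of 0.18 and 0.20 thus lay between those of these complexes. With bilberry eIF3 was spread from -0.98 to 0.84 in log2 ratio, with 4 genes higher and 3 lower by over 1.5-fold, against 18.5% and 13.5% of all detected genes, and the SD was 0.64 over eIF3, 0.47 over COP9, 0.37 over CCT and 0.34 over the proteasome.

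Of 15 listed partners of the proteasome 13 were detected, and 12 of 13 lay above the median of all genes with delphinidin and 12 with cyanidin. The ubiquitin receptor Adrm1 was at log2 ratios of 0.40, 0.17 and 0.27 for bilberry, then delphinidin, then cyanidin, and the lid subunit Sem1 at 0.26, 0.037 and 0.014. The deubiquitinase Usp14 was at 0.011, 0.25 and 0.32. Uchl5, another deubiquitinase, was at -0.62, 0.17 and 0.20, so that bilberry stood apart. Ubqln2, a shuttle for ubiquitinated proteins, was highest of the list with bilberry at 1.25. Pomp, the chaperone of the core, had marked spots on 3 arrays and is not compared.

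A list of 12 regulators held Nfe2l1 and Nfe2l2, their partners, processing enzymes and repressors, and the NF-Y subunits. Of these, 8 lay above the median of all genes with delphinidin, 5 with cyanidin and 6 with bilberry. Nfe2l1 was at log2 levels of 4.71 (DMSO), 4.63 (bilberry), 4.48 (delphinidin) and 4.53 (cyanidin), highest with DMSO. Nfe2l2, the regulator of antioxidant enzymes, was at 3.31, 3.07, 3.46 and 3.49 in that order. Both factors are known to be controlled mainly as proteins, which an RNA array does not measure. Of the enzymes known as Nfe2l2 targets 5 of 7 were detected and all 5 lay above the median of all genes with each anthocyanidin. With bilberry 4 of 5 did, and Nqo1 was at a log2 ratio of -0.11. The list medians were 0.51, 0.30 and 0.23 for bilberry, then delphinidin, then cyanidin. Heme oxygenase (Hmox1), the highest of the 5 detected enzymes in each comparison, was at log2 ratios of 1.87 (bilberry), 1.23 (delphinidin) and 0.54 (cyanidin). Slc7a11, on the same list but well above background on 1 array only, was at 2.42, 1.84 and 0.92 in that order.

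Promoters were then searched for sites of such factors. Sequences of 300 bases, from 250 before to 50 after the start, were given by RefSeq (GRCm38.p6) for 36 of the 43 members. The antioxidant response element core TGACNNNGC, read by Nfe2l1 and Nfe2l2, was found on either strand in 6 of 36 members, 16.7%, against 14.0% of all genes and 17.0% of detected genes. They were Psmb5, Psmb6, Psmc6, Psmd12, Psmd9 and Psme4. In the proteolytic subunits Psmb5 and Psmb6, the 100 bases before the start read as follows, with the element in capitals. Psmb5 is on the minus strand at chr14:54617996-54618095 and Psmb6 on the plus strand at chr11:70525257-70525356.
Psmb5: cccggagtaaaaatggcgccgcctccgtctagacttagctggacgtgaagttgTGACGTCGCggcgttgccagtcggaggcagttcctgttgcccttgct
Psmb6: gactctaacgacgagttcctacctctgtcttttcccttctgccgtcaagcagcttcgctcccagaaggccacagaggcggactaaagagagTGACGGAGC

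The ETS site CCGGAAG was found in 12 of 36 members, 33.3%, against 9.93% of all genes, 20.1% of detected genes and 8.86% of all 300-base promoters. The matches were uneven. They were in 9 of the 14 genes of the base and lid with a promoter and in 1 of the 14 genes of the core, Psma6. A split into core and regulatory particle was made after these matches were seen. The 100 bases before the start are shown for 4 genes as examples, from the base scaffold, the ATPases and the lid, with the site in capitals as it reads on the reverse strand (CTTCCGG). They are Psmd2 at chr16:20651552-20651651, Psmc1 at chr12:100110102-100110201, Psmd11 at chr11:80428515-80428614 and Psmd12 at chr11:107479428-107479527, all on the plus strand.
Psmd2: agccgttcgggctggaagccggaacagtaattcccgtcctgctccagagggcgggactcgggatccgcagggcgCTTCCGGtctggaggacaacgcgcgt
Psmc1: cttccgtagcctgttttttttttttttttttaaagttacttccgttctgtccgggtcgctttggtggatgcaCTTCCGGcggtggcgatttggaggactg
Psmd11: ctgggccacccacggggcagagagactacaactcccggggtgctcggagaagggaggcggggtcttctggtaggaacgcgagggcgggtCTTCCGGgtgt
Psmd12: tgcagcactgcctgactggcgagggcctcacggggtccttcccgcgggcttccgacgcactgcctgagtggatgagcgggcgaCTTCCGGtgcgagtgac

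The NF-Y box CCAAT was found in 13 of 36 members, 36.1%, against 41.1% of all genes and 43.2% of detected genes. In the core it was in 5 of 7 alpha ring, 1 of 4 constitutive beta and 1 of 3 inducible genes. In the base it was in 2 of 5 ATPase and 1 of 3 scaffold and receptor genes. Among the others it was in 1 of 6 lid, 1 of 3 assembly chaperone and 1 of 5 activator and inhibitor genes. The palindromic site of nuclear respiratory factor, searched without mismatch, was in Psma2 alone, 2.78% of members against 2.19% of detected genes. The interferon response core, GAAA repeated after any 2 bases, was in Psmb3, Psmd4, Psmd9 and Psme1, 11.1% against 3.51% of detected genes, and not in the 300-base windows of Psmb8, Psmb9 or Psmb10. No matches of different motifs overlapped in a member promoter. The 100 bases before the start are shown for Psmb3, the member with the highest ratio with bilberry, for Psma2 of the alpha ring, and for Psmb9 and Psmb8, the members with the lowest ratios with delphinidin. NF-Y boxes are in capitals, on the reverse strand in Psmb9, and Psmb8 holds none of the letters searched. Psmb3 is at chr11:97703334-97703433, Psma2 at chr13:14613142-14613241 and Psmb8 at chr17:34198095-34198194 on the plus strand, and Psmb9 at chr17:34187331-34187430 on the minus strand.
Psmb3: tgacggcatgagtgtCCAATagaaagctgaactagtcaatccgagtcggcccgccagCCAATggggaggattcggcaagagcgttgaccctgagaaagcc
Psma2: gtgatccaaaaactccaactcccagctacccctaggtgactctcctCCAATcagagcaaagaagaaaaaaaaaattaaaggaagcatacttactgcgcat
Psmb9: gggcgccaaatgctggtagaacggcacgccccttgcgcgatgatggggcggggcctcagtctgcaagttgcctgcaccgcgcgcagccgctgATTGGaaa
Psmb8: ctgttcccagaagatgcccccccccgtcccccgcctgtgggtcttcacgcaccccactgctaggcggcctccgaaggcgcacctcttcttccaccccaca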

How the data were processed

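Labeled RNA of 4 cultures was hybridized to 4 arrays of 1 slide, read in 1 scan. The authors deposited the output of Agilent Feature Extraction (9.5.1.1 in the file headers), in which the processed signal is an intensity with background subtracted and spatial trends removed. A deposited table of the series holds the same intensity, with a largest relative difference of 0. The 75th percentile scaling of the methods was applied here over the 43379 non-control spots of each array. Spots that the software marked as outliers were left out, replicate spots were averaged as log2 values, and a gene was its brightest probe with a value on all 4 arrays. The software's own call set which genes were well above background. With 1 array per condition no test was made.

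The members and lists were chosen with earlier results of these data known. Named were the catalytic and inducible subunits, the activators and inhibitor, the 3 highest and 3 lowest members in each comparison with DMSO, members not detected or with probes over 0.5 apart in log2 ratio, 7 partners and regulators, and up to 3 extremes of each list. Other genes named as part of a count, or as a range's end, were chosen after their values were seen.

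Alternatives were normexp background correction with an offset of 50 (fitted on all spots and without spots of uneven local background), quantile normalization, spike-in scaling, scaling to the median of detected probes, no filter on detection, the mean of all probes, marked spots kept, rows 191 to 418 left out, the deposited table and, chosen after seeing the data, a median of bright genes and the removal of Psmb8, Psmb9 and Psmb10. The calculation was run on data simulated from the DMSO array with small random noise and a scale factor per array. Such data can check the arithmetic only, not how far cultures or arrays vary. Probe coordinates are those of the files (mm8). Promoter coordinates are GRCm38.p6, and no exon annotation was used. Python 3.11.15, numpy 2.4.6, pandas 2.3.3, matplotlib 3.10.9, R 4.3.3 and limma 3.58.1 were used.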

Additional observations from a re-analysis of the deposited data

How the results depend on the processing

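No paired analysis was possible because each condition had 1 array and no replicate numbers. The member median relative to all genes kept its direction under 12 of 12 alternatives for delphinidin, cyanidin and delphinidin against cyanidin, and under 10 of 12 for bilberry. These counts include spike-in scaling, scaling to the median of detected probes and the deposited table, which leave this value unchanged by construction. The same holds for the subcomplex medians relative to all genes. With bilberry (0.08) it was -0.27 under normexp fitted on all spots, 0.037 under quantile normalization, -0.070 with no detection filter, 0.17 with marked spots kept and 0.024 against bright genes. With delphinidin (0.18) it was 0.15 under quantile normalization, 0.28 with no filter, 0.11 over the mean of probes and 0.14 against bright genes. With cyanidin (0.20) it was 0.14, 0.31, 0.12 and 0.16 under the same settings and 0.17 without a block of array rows. Delphinidin against cyanidin (-0.047) was -0.014 without those rows, and -0.020 both over the mean of probes and without Psmb8, Psmb9 and Psmb10. The members above the median numbered 9 with bilberry under normexp on all spots, and without those rows, where only 25 members are left, 15 with bilberry and 20 with delphinidin. Past 1.5-fold with bilberry (6) were 11 under normexp on all spots (10 lower and 1 higher, none of them among the 6), 3 under quantile normalization (Psmb3, Psmb10 and Psmf1) and 39 under spike-in scaling. With cyanidin (1) there were 0 under quantile normalization and 5 under spike-in scaling (Psma1, Psma4, Psmb7, Psmd1 and Psmd14). With delphinidin (1) there were 0 under both normexp fits, quantile normalization and median scaling, and under spike-in scaling the 1 was Psmd1, higher, in place of Psmb8. Past 2-fold with bilberry (0) were 28 under spike-in scaling and 1 with marked spots kept (Psmd13, a log2 ratio of 1.07). Spike-in scaling turned the bilberry log2 ratios of Psmb10 to -0.70, Psmb3 to -0.60, Psmb5 to -0.87, Psmb7 to -0.88, Psmc4 to -0.86 and Psmf1 to -0.83. The normexp fit on all spots put the background mean of the bilberry array at -345, and at -5.73 without spots of uneven background. The other causes were not tested.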

Other observations

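Complexes beside the proteasome were read from further lists. Under spike-in scaling the median of all genes with bilberry is -1.37, so the bilberry values here too hold only relative to other genes. Of the 6 genes of the segregase complex, which extracts ubiquitinated proteins, 3 lay above the median of all genes with bilberry and 5 with each anthocyanidin, and the list median relative to all genes was -0.011 (bilberry), 0.046 (delphinidin) and 0.14 (cyanidin). Vcp, among the highest of the list, was at log2 ratios of 0.64 (bilberry), 0.23 (delphinidin) and 0.53 (cyanidin), and its cofactor Nploc4 was at 0.74, 0.12 and 0.24. In the CCT chaperonin 6 of 7 genes were lower with delphinidin than with cyanidin, from a log2 ratio of -0.42 for Cct4 to -0.13 for Cct7, and Cct6a was at 0.15, where the median of all genes was -0.029.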
